A study of Homo sapiens with 36 samples.

Results

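hsa-miR-192-5p, hsa-miR-215 and hsa-miR-194-5p were followed through 7 comparisons of an aneuploid human cell line with its control. They were taken by name, and all 3 were listed in each of the 7 tables, out of 509 mature miRNA names listed in any table and 205 listed in all of them. No other arm of their hairpins was listed, and neither was any 3p name on the lists of other miRNAs used below. The members rose together in HCT116 5/4 and in RPE1 5/3 12/3, the lines with extra copies of chromosome 5. In HCT116 18/3 c2 hsa-miR-192-5p fell to 43.3% of its control level. In the other 4 lines no member passed both the test and the fold change limit.

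HCT116 cells come from a colon carcinoma and are near diploid. RPE1 cells come from the pigmented epithelium of the retina and were immortalised with hTERT, the catalytic part of telomerase. Small RNA was sequenced from untreated cells in 12 groups of 3 libraries, 36 in all. An asterisk marks cells that stably express the histone H2B tagged with GFP, and c marks the clone, so that each such line is a single clone. HCT116 5/4 (4 copies of chromosome 5) was compared with HCT116. The study's methods are not clear on whether these HCT116 cells and HCT116 5/4 came from the same source. HCT116 18/3 c2, HCT116* 3/3 c11 and HCT116* 8/3 c7 (3 copies of chromosome 18, 3 or 8) were all compared with the same 3 HCT116* libraries. HCT116 18/3 c2 carries no H2B-GFP and did not arise from HCT116*, so chromosome gain and tag cannot be told apart there. RPE1 5/3 12/3 (3 copies of chromosomes 5 and 12) was compared with RPE1. RPE1* 7/3 and RPE1* 21/3 (3 copies of chromosome 7 or 21) were compared with RPE1* libraries numbered 11 to 13 and 1 to 3. By the methods, chromosome 12 in RPE1 5/3 12/3 and chromosomes 9 and 12 in RPE1* 7/3 were gained spontaneously. The methods call the 3 libraries of a group biological replicates. Each group is a single cell line, so the p-values measure the spread between its cultures and not between independent lines with the same gain.

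Mature miRNAs guide Argonaute proteins to messenger RNAs, and pairing of their seed, bases 2 to 8, largely decides which messages are repressed. miR-192, miR-194 and miR-215 are abundant in gut epithelium, kidney and liver, and their promoters respond to the tumour suppressor p53 and to the hepatocyte nuclear factors. Among the messages that miR-192 and miR-215 are known to repress are those of cell cycle genes and of the ZEB factors of epithelial to mesenchymal transition. miR-194 is made from the same primary transcripts as the other members but has a seed of its own.

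The mature sequences are shown because hsa-miR-192-5p and hsa-miR-215 have the same seed and can act on the same messages, whereas hsa-miR-194-5p cannot be grouped with them by seed. They are RefSeq sequences from a table of GRCh38.p14, written 5′ to 3′ with the seed in capitals, and hsa-miR-215 was matched to the entry for the 5p arm.
hsa-miR-192-5p: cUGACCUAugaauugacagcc
hsa-miR-215: aUGACCUAugaauugacagac
hsa-miR-194-5p: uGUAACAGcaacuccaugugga
The first and second sequences were identical at 19 of 21 bases. Counted from 1 at the 5′ end, with the base of hsa-miR-192-5p first, they differ by C1A and C20A. The seed UGACCUA was found in 2 of 2370 mature human names in that table, both listed here, and the seed GUAACAG in 1. With both differences near the ends, reads could be assigned to the wrong member of the pair. Whether reads of hsa-miR-192-5p entered the count of hsa-miR-215 was not tested.

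The hairpins lie in pairs on 2 chromosomes, and all 4 were placed on the minus strand of GRCh37 by an exact match. MIR192 (chr11:64658609-64658718) and MIR194-2 (chr11:64658827-64658911) are 108 bases apart and lie in an exon of the long noncoding RNA gene MIR194-2HG. MIR215 (chr1:220291195-220291304) and MIR194-1 (chr1:220291499-220291583) are neighbours in the same way and lie within an intron of IARS2, a mitochondrial isoleucyl tRNA synthetase gene on the opposite strand. Both hairpins of miR-194 give the same mature sequence, so its count is the sum of the chromosome 1 and chromosome 11 copies. Neither chromosome was gained in any of the 7 lines.

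Each table gave a mean over 6 libraries of counts divided by size factors, a log2 fold change of line over control and its standard error (SE), and no value of a single library. The depth of single libraries is therefore unknown, and group levels were worked out from mean and fold change, in normalised read counts. A member was called where its listed adjusted p (DESeq2) was under 0.05, its absolute log2 fold change at least 0.6 and its mean at least 10. All 3 members passed the limit on the mean in every table, with lowest means of 1336 for hsa-miR-192-5p, 44.1 for hsa-miR-194-5p and 45.4 for hsa-miR-215. Their listed SEs were at least 1.41 times the error that counting alone gives. Of the 21 values, 7 were called in 3 lines, 6 of them higher and 1 lower, and 10 had an unadjusted p under 0.05. The calls rest on the normal distribution of the listed test. With a t distribution on the 2 or 4 residual degrees of freedom of each fit 0 of the 7 remained. On that reference the adjusted p of hsa-miR-192-5p in HCT116 5/4, listed at 1.9e-31, was 0.296. How many of all miRNAs kept a call was not worked out, so the loss cannot be called particular to the members. With 0.6 in place of 0 as the null value of the log2 fold change, the 3 calls in RPE1 5/3 12/3 did not pass.

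**Figure D1:**
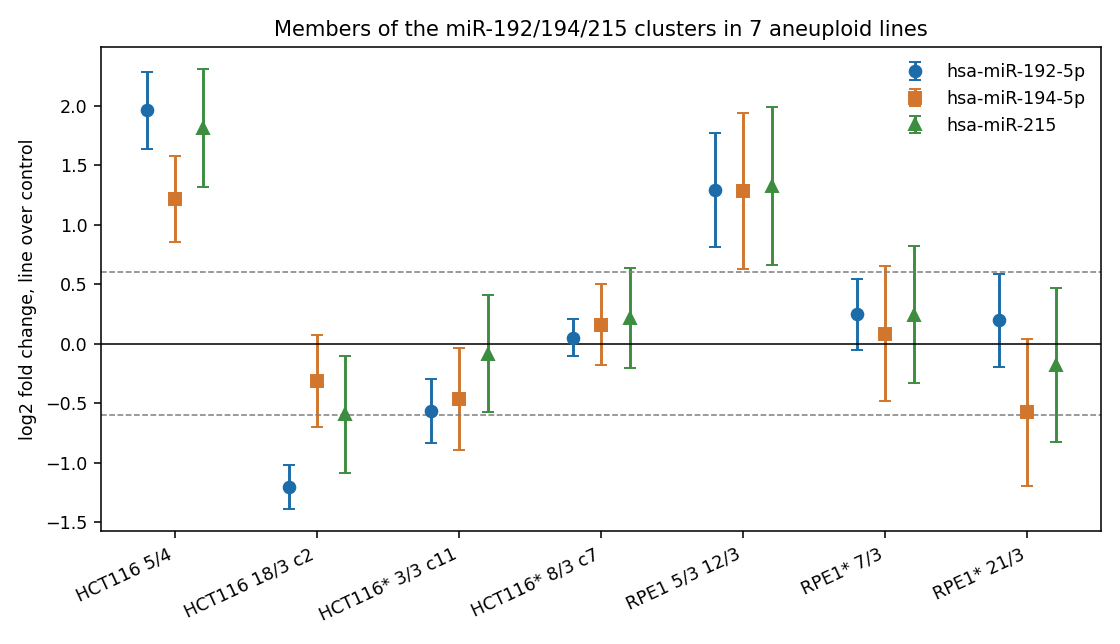
Log2 fold change of line over control (y axis) for the 3 members in each of the 7 lines (x axis). Points are listed values, bars their 95% normal intervals, and dashed lines mark 0.6 on the log2 scale. All members lie above the upper dashed line in HCT116 5/4 and RPE1 5/3 12/3, and hsa-miR-192-5p lies at -1.21 in HCT116 18/3 c2.

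In HCT116 5/4 all 3 members rose. The level of hsa-miR-192-5p went from 1330 normalised read counts in HCT116 to 5179, a log2 fold change of 1.96 (SE 0.16, adjusted p = 1.9e-31). hsa-miR-215, which carries the same seed, went from 58.6 to 206, a log2 fold change of 1.81 (SE 0.25, adjusted p = 1.4e-11). hsa-miR-194-5p went from 465 to 1082, a log2 fold change of 1.22 (SE 0.19, adjusted p = 7.24e-10). The calls higher for 3 of 3 members stand beside 46 of 249 miRNAs tested that were called higher in this table, or 18.5%, and 27.7% called in either direction. From the highest fold change down, hsa-miR-192-5p ranked 11, hsa-miR-215 ranked 12 and hsa-miR-194-5p ranked 22 of the 249.

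Of the 3 pairs of members in HCT116 5/4, 1 differed by the test. hsa-miR-192-5p exceeded hsa-miR-194-5p by 0.74 on the log2 scale (SE 0.25, adjusted p = 0.0277, two-sided normal test from the listed SEs, adjusted over 21 pairs in 7 lines). hsa-miR-192-5p and hsa-miR-215 differed by 0.15, with a 95% interval from -0.44 to 0.74. hsa-miR-194-5p minus hsa-miR-215 was -0.59, with an interval from -1.21 to 0.02. With the t distribution no pair passed, and the adjusted p of the first was 0.666. Members measured in the same libraries may have correlated errors, which this test leaves out.

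In RPE1 5/3 12/3 the same 3 miRNAs rose, from lower levels in the control. hsa-miR-192-5p went from 1069 normalised read counts in RPE1 to 2618, a log2 fold change of 1.29 (SE 0.24, adjusted p = 3.41e-06). hsa-miR-194-5p went from 130 to 316, a log2 fold change of 1.28 (SE 0.33, adjusted p = 0.00105). hsa-miR-215 went from 41.4 to 104, a log2 fold change of 1.33 (SE 0.34, adjusted p = 0.000875). The background here was 40 of 237 miRNAs called higher, or 16.9%, and 30.4% called in either direction. The members ranked 15, 16 and 14 from the highest fold change in that order.

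The 3 fold changes in RPE1 5/3 12/3 lay within 0.05 of each other on the log2 scale. The differences were 0.01 for hsa-miR-192-5p minus hsa-miR-194-5p (95% interval -0.80 to 0.82), -0.04 for hsa-miR-192-5p minus hsa-miR-215 and -0.04 for hsa-miR-194-5p minus hsa-miR-215. The interval of the last pair reached from -0.98 to 0.89, so differences of the size seen in HCT116 5/4 could not be detected in this line.

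Whether the lines with a gained chromosome 5 moved each member alike was tested across the tables. hsa-miR-192-5p was higher by 0.67 on the log2 scale in HCT116 5/4 than in RPE1 5/3 12/3, with a 95% interval from 0.09 to 1.25 and an adjusted p of 0.0516 over 12 such tests. That p missed the threshold. It was 0.171 with the t distribution and 0.0422 after centring on the table median. In an alternative that removes the variance of a shared control it was 0.0395. These lines share no control, so that change came only from the adjustment over the 12 tests. For hsa-miR-215 the difference was 0.48, with an interval from -0.35 to 1.31. For hsa-miR-194-5p it was -0.06, with an interval from -0.81 to 0.68. The lines also differ in cell type, in the copies of chromosome 5 and in the gain of chromosome 12, which cannot be told apart.

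In HCT116 18/3 c2 only hsa-miR-192-5p was called, and it was lower. It fell from 3118 normalised read counts in HCT116* to 1351, a log2 fold change of -1.21 (SE 0.10, adjusted p = 9.2e-34), and only 4 of the 280 miRNAs tested had a lower fold change. hsa-miR-215 was at 54.6 in the control and 36.2 in the line, with a log2 fold change of -0.59 (SE 0.25, adjusted p = 0.0650). hsa-miR-194-5p was at 144 and 116, with a log2 fold change of -0.31 (SE 0.20, adjusted p = 0.275). Among the 280 tested here, 26 miRNAs, or 9.29%, were called lower and 18.2% were called in either direction.

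hsa-miR-192-5p minus hsa-miR-194-5p was -0.90 on the log2 scale in HCT116 18/3 c2 (SE 0.22, adjusted p = 0.000928), a call that was lost with the t distribution (adjusted p = 0.316). By value hsa-miR-192-5p moved furthest of the members, as in HCT116 5/4. hsa-miR-192-5p minus hsa-miR-215 was -0.61, with a 95% interval from -1.14 to -0.09 and an adjusted p of 0.160. Of all 21 pairs of members in the 7 lines, 2 passed the threshold and 4 had an unadjusted p under 0.05.

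HCT116* 3/3 c11 had no called member. hsa-miR-192-5p was at 3708 normalised read counts in HCT116* and 2503 in the line, with a log2 fold change of -0.57 (SE 0.14, adjusted p = 0.000893), which passed the test and was short of the fold change limit. hsa-miR-194-5p was at 171 and 124, with a log2 fold change of -0.47 (SE 0.22, adjusted p = 0.135). hsa-miR-215 was at 66.8 and 63.1, with a log2 fold change of -0.08 (SE 0.25, adjusted p = 0.867). Of 279 miRNAs tested here 9.68% were called, the second lowest share of the 7 lines.

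In HCT116* 8/3 c7 all 3 members lay close to the control. hsa-miR-192-5p was at 3399 normalised read counts in HCT116* and 3520 in the line, and its 95% interval reached from -0.11 to 0.21 on the log2 scale around a fold change of 0.05. The log2 fold changes were 0.16 (SE 0.17) for hsa-miR-194-5p and 0.22 (SE 0.22) for hsa-miR-215. The adjusted p was at least 0.680 for each member, beside 15% of 293 miRNAs called.

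The 3 lines on the HCT116* libraries differed in hsa-miR-192-5p. HCT116 18/3 c2 lay below HCT116* 3/3 c11 by -0.64 on the log2 scale (SE 0.17, adjusted p = 0.000606) and below HCT116* 8/3 c7 by -1.26 (SE 0.13, adjusted p = 1.13e-22). HCT116* 3/3 c11 lay below HCT116* 8/3 c7 by -0.62 (SE 0.16, adjusted p = 0.000606). For hsa-miR-215 HCT116 18/3 c2 was below HCT116* 8/3 c7 by -0.81 (SE 0.33, adjusted p = 0.0434, but 0.121 with the t distribution), and neither other pair passed. For hsa-miR-194-5p no pair passed, and the nearest was HCT116* 3/3 c11 against HCT116* 8/3 c7 at -0.62 (adjusted p = 0.0516). With the shared control's part of the variance removed, chosen after seeing the data, hsa-miR-194-5p passed for this pair (adjusted p = 0.00388) and for HCT116 18/3 c2 against HCT116* 8/3 c7 (0.0229), and by summed level for the same pairs (0.0178 and 0.0136). Of the 12 tests between lines, 4 passed and 6 had an unadjusted p under 0.05. The lines share their control libraries, so these tests, which treat the SEs as independent, count the control's spread more than once.

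In RPE1* 7/3 no member was called, and 13% of 247 miRNAs were. hsa-miR-192-5p was at 2484 normalised read counts in the RPE1* libraries 11 to 13 and at 2950 in the line, with a log2 fold change of 0.25 (SE 0.15, adjusted p = 0.385). hsa-miR-194-5p was at 42.8 and 45.4, and hsa-miR-215 at 47.7 and 56.4, with log2 fold changes of 0.08 (SE 0.29) and 0.24 (SE 0.29). This was the table in which hsa-miR-215 stood above hsa-miR-194-5p in level, in line and control alike.

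In RPE1* 21/3 no member was called either, and 8.66% of 231 miRNAs were. hsa-miR-192-5p was at 1245 normalised read counts in the RPE1* libraries 1 to 3 and at 1427 in the line, with a log2 fold change of 0.20 (SE 0.20, adjusted p = 0.675). hsa-miR-194-5p was at 189 and 127, with a log2 fold change of -0.58 (SE 0.32, adjusted p = 0.322), and its 95% interval from -1.20 to 0.04 includes both no difference and a loss larger than the fold change limit. hsa-miR-215 was at 53.5 and 47.2, with a log2 fold change of -0.18 (SE 0.33, adjusted p = 0.865).

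**Figure D2:**
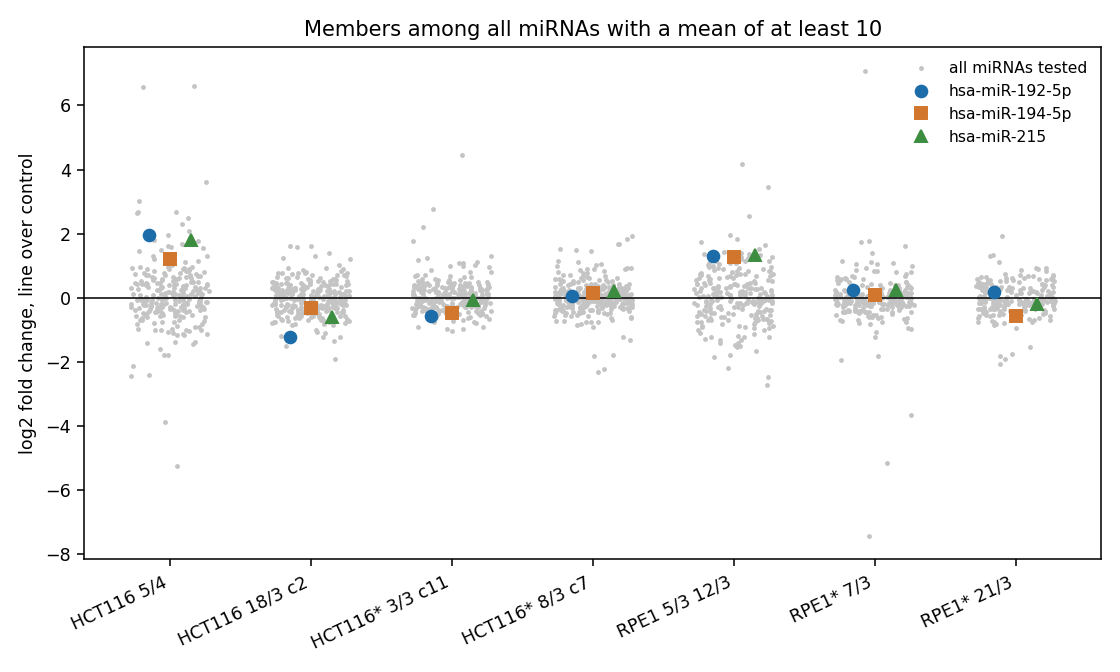
Log2 fold change of line over control (y axis) for every miRNA with a mean of at least 10 (grey points) in each line (x axis), with the 3 members as coloured symbols. The members ranked 11 to 22 from the top of 249 in HCT116 5/4 and 14 to 16 of 237 in RPE1 5/3 12/3, and sit within the bulk of the points in HCT116* 8/3 c7 and RPE1* 7/3.

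The size of the changes depended on how line and control were scaled to each other. The size factors left the median log2 fold change of all miRNAs tested between -0.06 and 0.07, but the summed normalised level of the line was 1.57 times that of the control in HCT116 5/4 and 1.53 times in RPE1 5/3 12/3. Most of that sum is hsa-miR-21-5p and hsa-miR-100-5p. In HCT116 5/4 they took 45.9% and 22.4% of the summed mean and had log2 fold changes of 0.71 (SE 0.15) and 0.76 (SE 0.69). In RPE1 5/3 12/3 their log2 fold changes were 0.42 (SE 0.27) and 0.83 (SE 0.64). When line and control were given equal summed levels, a scaling chosen after seeing the data, every log2 fold change fell by 0.65 in HCT116 5/4, 0.62 in RPE1 5/3 12/3, 0.28 in HCT116 18/3 c2 and 0.13 in HCT116* 3/3 c11. The median then stood at -0.62 and -0.55 in the first and second of these lines. The SEs were left as listed, so all p-values by summed level treat the shift as known without error.

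Under equal summed levels hsa-miR-192-5p was still called higher in HCT116 5/4, at 1.31 (adjusted p = 2.2e-14), and in RPE1 5/3 12/3, at 0.68 (adjusted p = 0.0181). hsa-miR-215 was still called in HCT116 5/4, at 1.16 (adjusted p = 2.62e-05), but not in RPE1 5/3 12/3, at 0.71 (adjusted p = 0.0845). hsa-miR-194-5p was called in neither, at 0.57 (adjusted p = 0.00757) and 0.67 (adjusted p = 0.0960). On the lower side hsa-miR-192-5p in HCT116* 3/3 c11 (-0.70, adjusted p = 1.57e-05) and hsa-miR-215 in HCT116 18/3 c2 (-0.87, adjusted p = 0.00264) were added, and hsa-miR-192-5p in HCT116 18/3 c2 reached -1.48. Every member kept its direction in every line under both scalings. Relative to the median of all miRNAs tested, which neither scaling changes, hsa-miR-192-5p, hsa-miR-215 and hsa-miR-194-5p stood at 1.93, 1.78 and 1.18 in HCT116 5/4, at 1.23, 1.26 and 1.22 in RPE1 5/3 12/3 and at -1.21, -0.59 and -0.31 in HCT116 18/3 c2.

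The same choice moved the whole table. The share of calls that were higher went from 66.7% by size factors to 15% by summed level in HCT116 5/4 and from 55.6% to 9.90% in RPE1 5/3 12/3. It went from 49.0% to 14.3% in HCT116 18/3 c2, from 63.0% to 39.4% in HCT116* 3/3 c11 and from 45.0% to 60.9% in RPE1* 21/3. The members' calls higher in HCT116 5/4 and RPE1 5/3 12/3 were thus among few others of that direction by summed level, 18 and 10 in all.

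**Figure D3:**
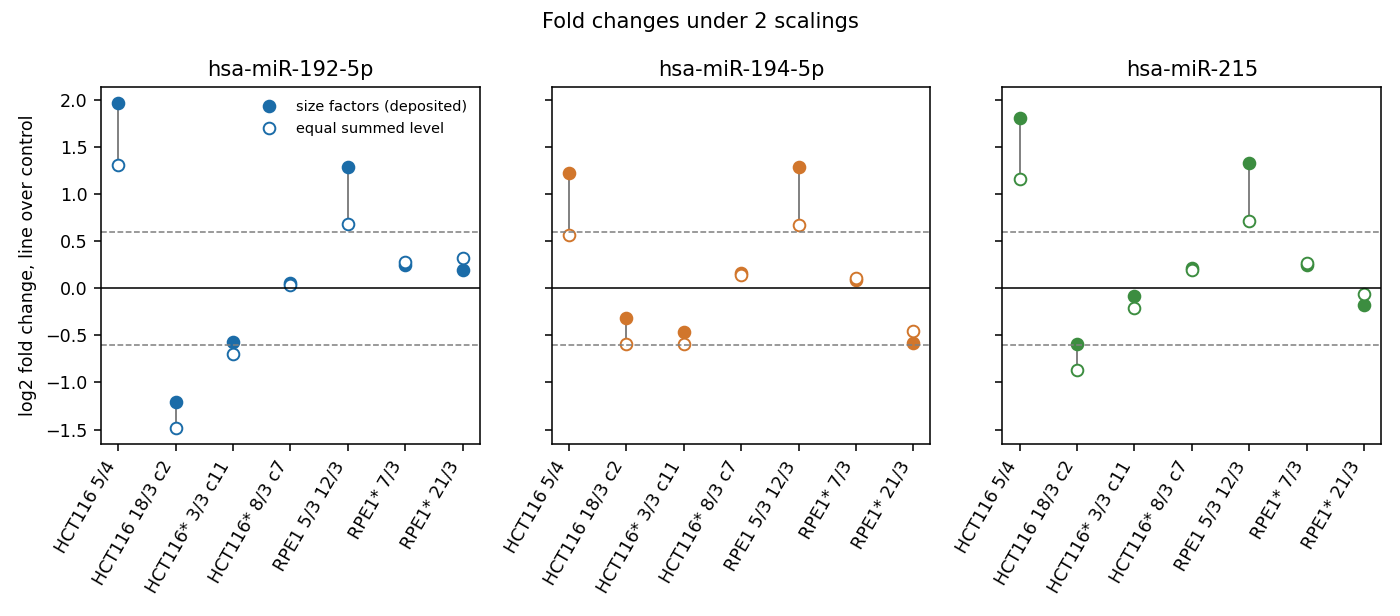
Log2 fold change of line over control (y axis) for each member (panels) in the 7 lines (x axis), with the deposited size factors (filled) and with equal summed levels of line and control (open). Dashed lines mark 0.6 on the log2 scale, and the gap between the symbols is widest in HCT116 5/4 (0.65) and RPE1 5/3 12/3 (0.62).

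Levels were also put on a common scale as normalised read counts per 1000000 of the summed level of a group (CPM). On this scale hsa-miR-192-5p was highest in HCT116 5/4 at 762 CPM and lowest in the RPE1 and RPE1* (1 to 3) controls at 149 and 148. Without the most abundant miRNA of each table in the sum these values were 1430, 258 and 266, and they were still the highest and the 2 lowest. The HCT116* control came out at 433 to 437 by its 3 tables, HCT116 at 308 and RPE1* (11 to 13) at 219. hsa-miR-192-5p ranked between 47 and 64 by mean among all miRNAs listed in a table. The tables were normalised separately, so the order of levels across tables is a description with no test.

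hsa-miR-194-5p ranged more widely than the other members. It was highest in HCT116 5/4 at 159 CPM and in its HCT116 control at 108, and in all other groups it was at most 28.7. The lowest levels were those of RPE1* (11 to 13) at 3.77 and RPE1* 7/3 at 4.08, which did not differ beyond their SE. The HCT116* control was at 20.0 to 20.3 by its 3 tables. hsa-miR-215 was highest in HCT116 5/4 at 30.3 CPM and in HCT116 at 13.6, and in the other groups lay between 4.15 in HCT116 18/3 c2 and 9.42 in RPE1 5/3 12/3.

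**Figure D4:**
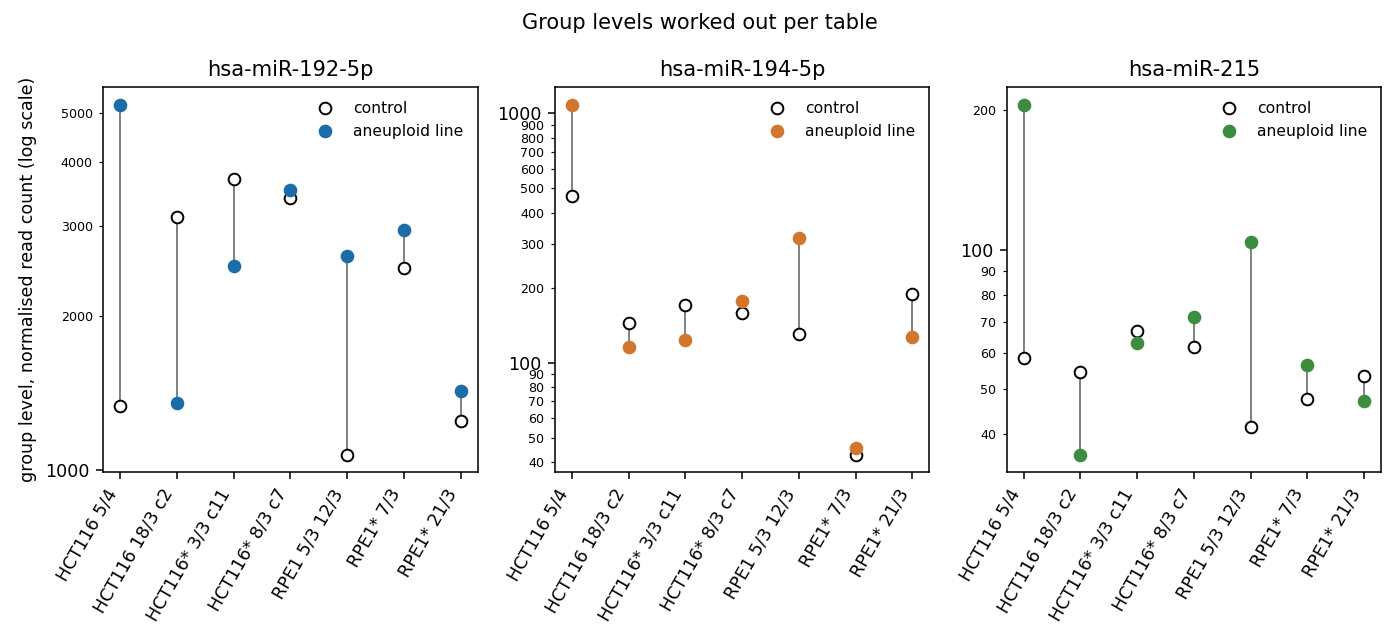
Group level in normalised read counts (y axis, log scale, different in each panel) of each member (panels) in the control (open) and the aneuploid line (filled) of each table (x axis), worked out from the listed mean and fold change. The filled symbols lie well above the open ones in all panels for HCT116 5/4, where hsa-miR-192-5p went from 1330 to 5179, and for RPE1 5/3 12/3, and hsa-miR-192-5p lies below its control in HCT116 18/3 c2.

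hsa-miR-192-5p made up 95.8% to 98.3% of the summed level of the pair that shares the seed UGACCUA, in every line and control. The changes in hsa-miR-215 therefore altered the total of that seed little, and the total followed hsa-miR-192-5p. In HCT116 5/4 the total went from 1389 to 5384 normalised read counts, in RPE1 5/3 12/3 from 1111 to 2722 and in HCT116 18/3 c2 from 3173 to 1387.

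The ratios between members within a group need no scaling across tables, and they differed between tables in a way that followed the authors' fits. The authors' fits of RPE1* 21/3, HCT116 5/4 and RPE1 5/3 12/3 had the paired replicate number as a term for sequencing batches, and the other 4 fits did not. In the 3 tables with that term hsa-miR-194-5p was 8.89% to 35.0% of hsa-miR-192-5p over the 6 groups, and in the 4 tables without it 1.54% to 8.59% over 8 group values, of which 3 are the HCT116* control by its 3 tables. For hsa-miR-215 the ranges were 3.3% to 4.4% and 1.75% to 2.68%. Neither pair of ranges overlapped, and HCT116 and RPE1 cells were in both sets of tables. How many of all miRNAs separate the sets in this way was not worked out, so the split cannot be called particular to these members. The groups within a set share controls or cell types and were not tested against each other.

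**Figure D5:**
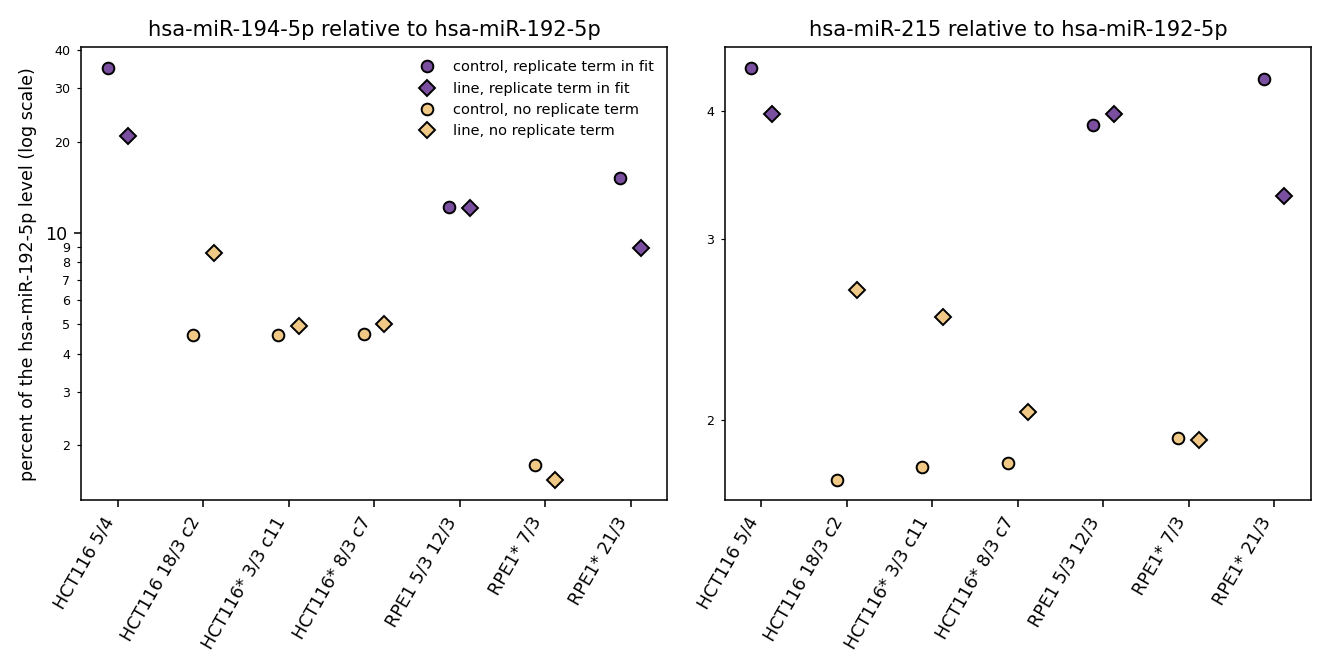
Level of hsa-miR-194-5p (left) and hsa-miR-215 (right) as a percent of hsa-miR-192-5p (y axis, log scale) in the control (circles) and line (diamonds) of each table (x axis), coloured by whether the authors' fit had a replicate term. All 6 values with the term lie above the 8 without it, at 8.89% or more for hsa-miR-194-5p and at 3.3% or more for hsa-miR-215. How many of all miRNAs separate in this way was not worked out.

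A gap in hsa-miR-194-5p was also seen between the RPE1* control groups, which carry the same label. hsa-miR-194-5p was at 22.6 CPM in RPE1* (1 to 3) and at 3.77 in RPE1* (11 to 13), a ratio of 5.98, and only 8 of 217 miRNAs with a mean of at least 10 in both tables, itself among them, differed by as much. hsa-miR-192-5p was 1.48 times higher in RPE1* (11 to 13), and 64.5% of miRNAs differed by at least that. hsa-miR-215 was 1.52 times higher in RPE1* (1 to 3), and 60.4% of miRNAs differed by at least that. Between HCT116 and HCT116*, which also differ in the tag, hsa-miR-194-5p was 5.3 times higher in HCT116, and 9 of 234 miRNAs differed by as much. hsa-miR-215 was 1.71 times higher in HCT116, and 51.7% of miRNAs differed by at least that. Between RPE1 and RPE1* (1 to 3), which also differ in the tag and whose tables were both fitted with the term, hsa-miR-194-5p had a ratio of 0.80. Of 223 miRNAs, 55.2% differed by at least that. The part of the sequencing runs in these levels was not tested. The fold changes of a line over its own control are set within a table.

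Within a table the ratio follows from the fold changes given above. hsa-miR-194-5p went from 35.0% of hsa-miR-192-5p in HCT116 to 20.9% in HCT116 5/4, and from 4.62% in HCT116* to 8.59% in HCT116 18/3 c2. These are the pairs whose difference passed the test above. It was 12.2% in RPE1 and 12.1% in RPE1 5/3 12/3, and 15.2% and 8.89% in RPE1* (1 to 3) and RPE1* 21/3, where the difference had an adjusted p of 0.198.

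Each member was compared with the 172 other miRNAs listed in all 7 tables with a mean of at least 10 in each. Among these hsa-miR-215 was the one most like both other members in its log2 fold changes over the 7 lines. It was first in likeness to hsa-miR-192-5p (Pearson r = 0.96) and to hsa-miR-194-5p (r = 0.94). Between hsa-miR-192-5p and hsa-miR-194-5p r was 0.86, and each ranked 6 for the other. The next miRNAs were hsa-miR-449c-5p (r = 0.89) and hsa-miR-378a-5p (r = 0.88) for hsa-miR-192-5p, hsa-miR-1262 (r = 0.93) and hsa-miR-378a-5p (r = 0.92) for hsa-miR-194-5p, and hsa-miR-378a-5p (r = 0.94) for hsa-miR-215. By the smallest Euclidean distance in place of r, hsa-miR-215 stayed first for the other members, and hsa-miR-194-5p came first for hsa-miR-215 itself. These values are descriptions over 7 lines, of which 3 share control libraries.

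Other miRNAs of chromosomes 1 and 11, the chromosomes of the hairpins, were set beside the members. In HCT116 5/4 the median log2 fold change was -0.21 over 15 other miRNAs placed on chromosome 1, with 0 called higher and 3 lower. It was 0.07 over 6 on chromosome 11, with 1 called higher and 0 lower. For the latter chromosome in this line, the paper reported a significantly increased median of miRNA expression. The set used here left out the members and all names without a single chromosome, so it was not the paper's set. The difference between these results was not tested. Of all miRNAs tested in that line 18.5% were called higher and 9.24% lower. In RPE1 5/3 12/3 the median log2 fold change was 0.58 over 12 on chromosome 1, with 3 called higher and 0 lower. It was 0.27 over 9 on chromosome 11, with 2 called higher and 0 lower. Over all miRNAs tested it was 0.07, and 16.9% of them were called higher. In HCT116 18/3 c2, where hsa-miR-192-5p fell, the median over 10 others of chromosome 11 was 0.41, with 4 called higher and 1 lower, beside 8.93% and 9.29% of all miRNAs tested. RefSeq placed 83.1% of the 509 names on a single chromosome, and the rest did not enter these counts.

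Other miRNAs linked to p53 were set beside the members, from a list of 16 names of which 8 were listed in any table. No 3p name was among the 8. miR-34a and miR-34c are direct p53 targets that restrain the cell cycle, and miR-145 and miR-16 are processed more efficiently when p53 is active. In HCT116 5/4, 1 of 7 tested was called higher, hsa-miR-34c-5p at 1.14 (SE 0.27), and 1 lower, hsa-miR-200c-5p at -1.77 (SE 0.30). Of all miRNAs tested in that line 18.5% were called higher and 9.24% lower. hsa-miR-34a-5p was not called in it, at -0.38 (SE 0.16, DESeq2 adjusted p = 0.0653). The list median there was -0.15 beside 0.04 over all miRNAs tested. In RPE1 5/3 12/3, 2 of 7 were called higher, hsa-miR-16-5p at 0.93 (SE 0.31) and hsa-miR-15a-5p at 0.61 (SE 0.24), with a median of 0.36 beside 0.07, where 16.9% of all miRNAs tested were called higher. By summed level none of the list was called higher in either line. hsa-miR-34c-5p then stood at 0.48 in HCT116 5/4, where 4 of 7 were called lower, and hsa-miR-16-5p at 0.31 in RPE1 5/3 12/3, where 2 of 7 were. Beside these, 102 of 249 and 91 of 237 miRNAs tested were called lower by summed level.

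In HCT116 18/3 c2 the called miRNAs of the list and hsa-miR-192-5p had opposite signs. There 3 of 7 were called higher and 0 lower, beside 8.93% of all miRNAs tested called higher, among them hsa-miR-34a-5p at 0.87 (SE 0.23) and hsa-miR-34c-5p at 0.62 (SE 0.20), and the median was 0.53 beside 0.00 over all. By summed level all 3 calls were lost, with hsa-miR-34a-5p at 0.59 and hsa-miR-34c-5p at 0.34, and the median was 0.25 beside -0.28. In RPE1* 7/3, where no member was called, hsa-miR-34c-5p rose by 1.73 (SE 0.25) and hsa-miR-145-5p fell by 3.65 (SE 0.29), with 2 of 6 called higher and 1 lower. Of all miRNAs tested in RPE1* 7/3, 13% were called in either direction. In HCT116* 3/3 c11 hsa-miR-34c-5p was called at 1.04 (SE 0.22) and hsa-miR-200c-5p at -0.69 (SE 0.24). In HCT116* 8/3 c7 the 2 calls were lower, hsa-miR-34c-5p at -1.21 (SE 0.25) and hsa-miR-145-5p at -0.60 (SE 0.12), and in RPE1* 21/3 the 1 call was hsa-miR-145-5p at -1.53 (SE 0.22). In HCT116* 3/3 c11, HCT116* 8/3 c7 and RPE1* 21/3, 7 miRNAs of the list were tested. Of all miRNAs tested 9.68%, 15% and 8.66% were called in either direction, in that order. The p53 protein and its other targets were not analysed here.

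Of 13 names on a list of gut-enriched epithelial miRNAs, 5 were listed in each HCT116 table and 1 or 2 in each RPE1 table. All of these were 5p arms, and no 3p name of the list was in any table. hsa-miR-31-5p, a name on that list, was not enriched in the colon cells here. Its mean was 1028 to 4225 CPM in the RPE1 tables and 1855 to 4427 CPM in the HCT116 tables. In HCT116 5/4, where the members rose, 3 of 5 were called lower and 0 higher, beside 9.24% of all miRNAs tested called lower, from hsa-miR-31-5p at -2.40 (SE 0.16) to hsa-miR-141-5p at -1.77 (SE 0.20). The median of the list was -1.77 beside 0.04 over all. By summed level all 5 were called lower, at a median of -2.42 beside -0.62. Of all miRNAs tested, 102 of 249 were called lower there by summed level. In RPE1 5/3 12/3 the single member tested, hsa-miR-31-5p, was called higher at 1.08 (SE 0.23), a call lost by summed level at 0.47. In HCT116* 3/3 c11 hsa-miR-200c-5p was the 1 call, and in the other 4 lines no miRNA of the list was called.

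The labelled cell types were checked against marker miRNAs. Of 9 names of the miR-200 family, which marks colorectal and other epithelia, 4 were listed in each HCT116 table, at a summed mean of 1270 to 2747 CPM. None was listed for RPE1 5/3 12/3 or RPE1* 7/3, and 1 was for RPE1* 21/3, at 0.58 CPM. All listed names of the family were 5p arms, and none of its 3p names was listed. The summed means are therefore not levels of the whole family. The pigment epithelial miRNAs miR-204 and miR-211 summed to 380 to 1452 CPM in the RPE1 tables and to 3.3 to 4.5 in the HCT116 tables. In HCT116 5/4, 2 of the 4 miR-200 family names, hsa-miR-200c-5p and hsa-miR-141-5p, were called lower, and hsa-miR-204-5p was called higher at 1.56 (SE 0.51), at levels of 9.28 and 27.4 normalised read counts. By summed level all 4 were called lower, beside 102 of 249 miRNAs tested, and hsa-miR-204-5p was not called, at 0.91. Their part in the rise of the members in that line was not tested.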

How the data were processed

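Small RNA libraries were mapped by the authors to hg19 with mirdeep2 after adapter removal with cutadapt, and each line was compared with its control by DESeq2, whose version is not given in the sources used here. Per table, the deposited mean is a signal, the authors' average of counts divided by size factors over 6 libraries. The deposited fold change is a log2 ratio listed with a standard error, the deposited score is their quotient, and the deposited p-value is its two-sided normal value, adjusted by Benjamini-Hochberg. These columns are the authors' own comparisons and were used because the tables give no value of a single library. Fits of RPE1* 21/3, HCT116 5/4 and RPE1 5/3 12/3 had the paired replicate number as a term. Fold changes in some tables may be shrunken, so scales may differ between tables.

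The control level was taken as 2 times the mean divided by 1 plus the fold change, which is approximate in fits with a replicate term. A member was called at an adjusted p under 0.05, a log2 fold change of 0.6 or more in either direction and a mean of at least 10. Differences used two-sided normal tests with the listed standard errors taken as independent, adjusted over 21 pairs of members or 12 pairs of lines. The test code was run on simulated log2 fold changes, drawn from normal distributions with the listed standard errors as true and independent. That run cannot check the few residual degrees of freedom, correlated members or shared controls. Alternatives changed the fold change limit, null, minimum mean, adjustment, reference distribution and scaling. Those of scaling kept the listed standard errors. Named miRNAs were the members, the called miRNAs with the highest and lowest fold change of each list per line, and the 3 most like each member. Named outside this rule, after their values were seen, were hsa-miR-21-5p and hsa-miR-100-5p for their abundance, and hsa-miR-204-5p as a marker. The members and lists were chosen with earlier results of these data known. Figures were drawn with matplotlib 3.10.9, and values computed with scipy 1.17.1, pandas 2.3.3 and numpy 2.4.6 under Python 3.11.15.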

Additional observations from a re-analysis of the deposited data

Results flagged for a closer look

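Results were singled out where the fold changes of a member in a pair of lines differed by a test of the difference. hsa-miR-192-5p was lower in HCT116 18/3 c2 than in HCT116* 3/3 c11 by -0.64 on the log2 scale (95% interval -0.97 to -0.31) and lower than in HCT116* 8/3 c7 by -1.26 (-1.50 to -1.01). It was lower in HCT116* 3/3 c11 than in HCT116* 8/3 c7 by -0.62 (-0.93 to -0.30). hsa-miR-215 was lower in HCT116 18/3 c2 than in HCT116* 8/3 c7 by -0.81 (-1.46 to -0.16), the 1 of the 4 that did not pass with the t distribution (adjusted p = 0.121). All 4 pairs are among the lines on the same HCT116* control libraries, and HCT116 18/3 c2 is the line of these without H2B-GFP.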

How the results depend on the processing

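Of the 21 values of a member in a line, 7 were called, and the count was 6 to 8 without a fold change limit, with a limit of 1, with a mean of at least 100, with adjustment over means of at least 10, and after centring on the table median. By summed level, chosen after seeing the data, it was 6, of which 4 were among the 7 and 2 were new. Against an absolute log2 fold change of 0.6 the count was 4, since the 3 calls in RPE1 5/3 12/3 were lost. With a t distribution on the 2 or 4 residual degrees of freedom the count was 0. For the 7 calls the adjusted p then ran from 0.0752 for hsa-miR-192-5p in HCT116 18/3 c2 to 0.491. How many of all miRNAs kept a call that way was not worked out. The 2 differences between members within a line also went to 0. Of the 12 differences between lines 4 passed, and 3 passed with the t distribution, 5 after centring, 6 by summed level and 7 with the shared control's part of the variance removed, also chosen after seeing the data. The last count includes hsa-miR-192-5p between HCT116 5/4 and RPE1 5/3 12/3, whose controls differ and whose SE did not change. The median level of hsa-miR-192-5p over groups was 267 CPM, 501 without the most abundant miRNA of each table and 268 over miRNAs listed in all 7 tables. No alternative turned a direction. No paired analysis was possible because the tables hold no values of single libraries, and for the same reason leaving out a replicate, refits by edgeR or DESeq2 and the depth of a library were not run or known.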
